A study of Rattus norvegicus with 20 samples.

Results

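The adrenergic receptor genes are the receptors through which noradrenaline and adrenaline act. Members were the 7 genes Adra1a, Adra1b, Adra1d, Adra2a, Adra2b, Adra2c and Adrb1, taken wherever the array's annotation gave a probe set exactly 1 of these symbols. They are 7 of 14218 genes with such a probe set and had 10 of the 31099 probe sets on the array. Adra2b had 3, Adra2a had 2 and each other gene had 1. Where a gene had several, its main probe set was chosen by the highest mean over all 20 arrays. For Adra2a that was 1393048_at with a mean of 9.54, against 5.68 for 1387708_at. For Adra2b it was 1370567_at with 6.48, against 5.19 for 1396853_at and 5.12 for 1380171_at. These means, taken over both groups together, are given as a description.

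Noradrenaline reaches the amygdala in axons of the locus coeruleus and of brainstem cell groups in the medulla. The α1 receptors couple mainly to Gq proteins and phospholipase C, the α2 receptors to Gi and Go proteins that hold back adenylyl cyclase and transmitter release, and the β receptors to Gs and adenylyl cyclase. The system is studied in alcohol research because stress and withdrawal raise noradrenaline in the extended amygdala. Blockers of α1 and β receptors lower alcohol intake in rodent models.

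The tissue was central amygdala nucleus from rats of the alcohol-preferring (P) line, which was selected for high voluntary intake. During adolescence 10 animals had access to ethanol at 15% and 30%, and 10 animals had water only. All 20 belonged to the P line, and each gave 1 array of its own RNA. The labels state neither the age in days nor the sex, the amount drunk or the time since the last drink. The values are log2 probe set summaries made by RMA, so a difference of 1 is a doubling of signal.

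The medians of the arrays ran from 7.92 to 7.97, and correlations between any 2 arrays from 0.977 to 0.997. Ethanol animal 5 and water animals 15 and 18 had the lowest mean correlation with the others, and the main results are also given without them. Markers of central amygdala neurons were read as a description of the labelled tissue. Of 14 measured markers 13 lay above the signal filter described next, and Calcrl did not (5.51 to 6.33 over the arrays). Among the 13 were Prkcd (8.65 to 10.37) and Crh (8.26 to 10.92). The filter kept 18625 of 31042 non-control probe sets. It also kept 16 of 16 striatal, 15 of 15 pan-neuronal and 13 of 13 astrocyte markers. The count therefore cannot tell the central amygdala from neighbouring tissue. The pieces were bulk tissue, so fewer cells of a type and less RNA per cell cannot be told apart in any value below. A level of one probe set is not comparable with that of another, because probes differ in how well they bind.

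Probe sets entered the test where their mean over all arrays exceeded log2 7.14, the level that 40% of the probe sets other than controls did not reach. The main probe sets of Adra2a, Adra2c and Adra1b passed, and those of Adra2b, Adrb1, Adra1d and Adra1a did not, nor did any second probe set. Members below the filter were read from a fit of all 31042 non-control probe sets. Among the main probe sets, the values nearest the filter were 8.32 for Adra1b inside it and 6.48 for Adra2b outside it. Of the 7 genes, 6 had an entry in the RefSeq promoter table (build GRCr8). Adra1a had none.

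The 250 bases before the annotated start are shown for Adra2c, whose values differed most between the groups, and for its paralog Adra2a, which was measured above the filter in the same animals. Capitals mark the GC box GGGCGG on either strand, the core of the site bound by Sp1. The Adra2c stretch is chr14:79697477-79697726 on the minus strand, and the Adra2a stretch is chr1:263066530-263066779 on the plus strand.
Adra2c: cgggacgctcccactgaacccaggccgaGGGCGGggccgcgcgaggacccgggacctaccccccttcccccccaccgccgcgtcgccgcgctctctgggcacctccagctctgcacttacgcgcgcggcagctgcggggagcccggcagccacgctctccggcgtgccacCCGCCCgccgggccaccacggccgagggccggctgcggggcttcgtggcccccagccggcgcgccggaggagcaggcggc
Adra2a: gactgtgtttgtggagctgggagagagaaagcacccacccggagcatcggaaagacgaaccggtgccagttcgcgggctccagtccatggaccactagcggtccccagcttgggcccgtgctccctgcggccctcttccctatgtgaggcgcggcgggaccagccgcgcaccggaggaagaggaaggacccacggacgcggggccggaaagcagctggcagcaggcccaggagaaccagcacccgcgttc

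The Adra2c stretch held 2 GC boxes and the Adra2a stretch 0. Adra2b also had 2, and Adra1b, Adra1d and Adrb1 had 0. A GC box occurred in 30.5% of the 33469 stretches of the same length in the table. Neither printed stretch held TGACGTCA (the cAMP response element, in 1.59% of all), TATAAA (the TATA box, in 12.9%) or CACGTG (an E-box, in 5.59%), searched on both strands. The 6 receptor stretches were GC-rich, from 64.0% in Adra1d to 80.4% in Adra2c, against a median of 51.2% over all. These letter matches are descriptions of the windows and say nothing of binding.

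The comparison of ethanol with water asked whether receptor transcripts differed after adolescent drinking. Adra2c had the largest difference, with higher values in most ethanol animals, and it missed the adjusted threshold in limma. The other genes differed by at most 0.11 in their main probe sets. Of the 3 member probe sets above the filter 0 passed an adjusted p of 0.05, against 0.0215% of all probe sets tested (4 of 18625). At an unadjusted p under 0.05 there was 1, Adra2c, where the share over all probe sets was 12.8% (2393). It lay in the higher direction (7.37% of all), and 0 lay in the lower direction (5.48% of all). A higher mean with ethanol was seen for 2 of these 3 and for 57.8% of all. In the fit of all probe sets 0 of 10 passed the adjusted threshold (0.00966% of all) and 2 had an unadjusted p under 0.05 (10.5% of all). Of the 7 main probe sets 5 (and 55.2% of all probe sets) had a higher mean with ethanol, and their median difference was 0.06, against 0.01 over all.

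**Figure D1:**
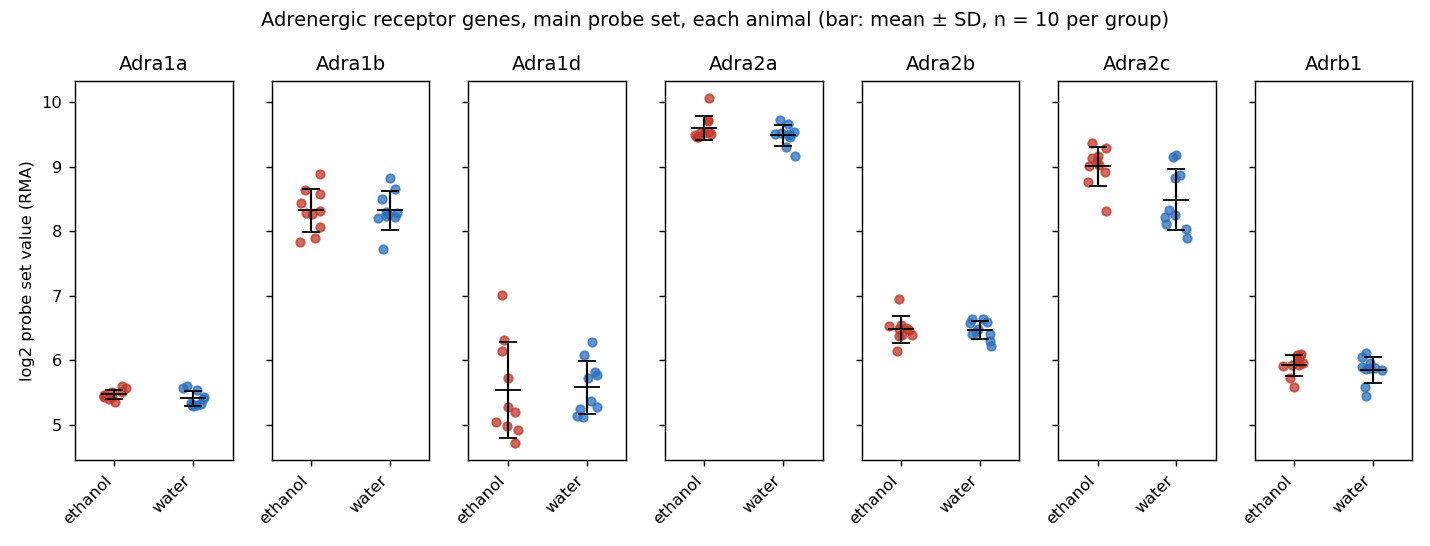
Log2 value of the main probe set of each receptor gene (y axis) in each animal, with ethanol animals in red on the left and water animals in blue on the right of each panel, and bars for the mean ± SD (n = 10 per group). For Adra2c, 9 ethanol and 4 water animals lie above an empty stretch between 8.32 and 8.76, and in the other panels the group means differ by at most 0.11.

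Adra2c encodes the α2C receptor, which in rats and mice is most abundant in the striatum and also acts as a receptor on noradrenergic terminals. Its log2 values in ethanol animals ran from 8.31 over a median of 9.06 to 9.37, and in water animals from 7.90 over a median of 8.29 to 9.18. The groups overlapped. All 10 ethanol animals lay above the water median, 2 lay above the highest water animal, and 5 water animals lay below the lowest ethanol animal. The 20 values left a gap of 0.44 between 8.32 and 8.76. Above it lay 9 ethanol and 4 water animals, and below it 1 ethanol and 6 water animals.

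Adra2c averaged 9.01 ± 0.30 in ethanol and 8.49 ± 0.47 in water animals (10 animals per group, SD). The log2 difference was 0.52 (SE 0.16, 95% interval 0.18 to 0.86), a 1.43-fold higher signal. Its limma p was 0.00487 before and 0.284 after adjustment, the 314th smallest of 18625. A two-sided permutation test of this value alone gave p = 0.0111, unadjusted. The accession order falls into 3 runs that each hold equal numbers of both groups, though no label calls them a batch. The difference was 0.48, 0.49 and 0.64 in these runs, with 4, 4 and 2 animals per group. It lay between 0.45 and 0.60 when each animal was left out in turn, and was 0.40 (SE 0.18) without the 3 arrays that correlated least.

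**Figure D2:**
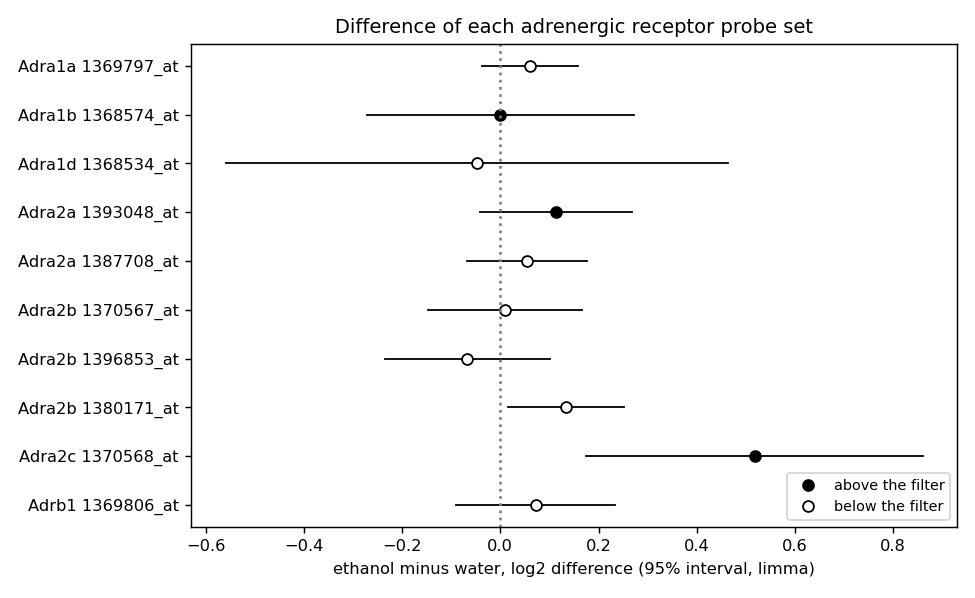
Ethanol minus water log2 difference (x axis) for the 10 receptor probe sets (y axis), with 95% intervals from limma; filled points lie above the signal filter and open points below it. The intervals of Adra2c (0.18 to 0.86) and of Adra2b probe set 1380171_at (0.02 to 0.25) do not include 0, and neither passed adjustment over all probe sets.

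No cell type marker passed the adjusted threshold in limma, though the means of several marker lists lay mostly to one side. A higher mean with ethanol was seen for 13 of 13 central amygdala markers (0 at an unadjusted p under 0.05), 14 of 15 pan-neuronal markers (5 at that p) and 15 of 16 striatal medium spiny neuron markers (1 at that p), against 57.8% of all probe sets above the filter. Of all these probe sets, 7.37% had an unadjusted p under 0.05 in the higher direction and 5.48% in the lower direction. The striatal markers' mean per animal, the striatal score, ran from 9.68 to 10.87 in ethanol and from 9.77 to 10.67 in water animals. With that score as a covariate the Adra2c difference was 0.37 (SE 0.13, limma adjusted p = 0.249). Of 13 astrocyte markers, 11 had a lower mean with ethanol, 2 of them at an unadjusted p under 0.05 (5.48% of all in that direction). The astrocyte score ran from 11.94 to 12.23 in ethanol and 12.08 to 12.27 in water animals. With the astrocyte score as a covariate the Adra2c difference was 0.31 (SE 0.18), its interval of -0.07 to 0.68 included 0, and the limma p was 0.101 before and 0.566 after adjustment. All 15 oligodendrocyte and myelin markers had a lower mean with ethanol, 7 of them at an unadjusted p under 0.05. Their score ran from 10.76 to 12.28 in ethanol and 11.40 to 12.54 in water animals. With that score as a covariate the Adra2c difference was 0.46 (SE 0.18). All 6 choroid plexus and ependyma markers also had a lower mean with ethanol, 3 of them at that p (score 7.18 to 11.02 in ethanol and 7.49 to 11.19 in water animals). So did all 10 meningeal markers, 0 of them at that p (score 7.74 to 9.48 in ethanol and 7.75 to 10.60 in water animals). The part of the choroid plexus and meningeal scores in the Adra2c difference was not tested.

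Adra2a encodes the α2A receptor, the main autoreceptor of noradrenergic neurons and a target of clonidine and guanfacine. Its main probe set ran from 9.46 over a median of 9.53 to 10.06 in ethanol animals and from 9.17 over 9.50 to 9.72 in water animals. The medians nearly coincided, and ethanol animal 1 lay above all others. The means were 9.60 ± 0.19 in ethanol and 9.48 ± 0.16 in water animals (10 animals per group, SD), a difference of 0.11 (SE 0.075, interval -0.04 to 0.27, limma adjusted p = 0.511). Without ethanol animal 1 it was 0.06. With the astrocyte score as a covariate it was 0.19 (interval 0.01 to 0.36, limma p = 0.0389 before and 0.486 after adjustment), and with the striatal score 0.16 (interval 0.02 to 0.30, limma p = 0.0289 before and 0.307 after adjustment). The second probe set, 1387708_at, averaged 5.71 ± 0.17 in ethanol and 5.66 ± 0.083 in water animals and differed by 0.05 (SE 0.059). The values of both probe sets correlated at 0.13 over the 20 animals once group means were removed.

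Adra2b encodes the α2B receptor, known in rodents from the thalamus and from blood vessels. Its main probe set ran from 6.14 over 6.48 to 6.96 in ethanol and from 6.22 over 6.46 to 6.64 in water animals, so the groups overlapped almost fully. The difference was 0.01 (SE 0.076, interval -0.15 to 0.17, limma adjusted p = 0.981). The dimmer probe sets differed in opposite directions, 1380171_at by 0.13 (SE 0.057, limma p = 0.0284 before and 0.428 after adjustment) and 1396853_at by -0.07 (SE 0.081). No pair of the 3 probe sets correlated beyond 0.07 in size among animals, from -0.07 to 0.02, and all lay below the filter.

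Among the α1 receptors, Adra1b, which encodes the α1B receptor, had nearly the same mean in both groups. Its values ran from 7.84 over 8.30 to 8.88 in ethanol and from 7.73 over 8.27 to 8.83 in water animals. The means were 8.32 ± 0.33 in ethanol and 8.32 ± 0.30 in water animals (10 animals per group, SD). In the 3 runs the difference was -0.02, 0.22 and -0.41. The 95% interval of the overall difference ran from -0.27 to 0.27 (limma adjusted p = 0.9995), so the arrays leave room for differences of either sign.

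Adra1d, which encodes the α1D receptor, was the member with the widest scatter. It ran from 4.72 over 5.24 to 7.02 in ethanol and from 5.12 over 5.55 to 6.29 in water animals. Ethanol animals held both the lowest and the highest values. The difference was -0.05 (SE 0.25, interval -0.56 to 0.46, limma adjusted p = 0.967), with an SD of 0.75 in ethanol and 0.41 in water animals, whose ratio was not tested. In the 3 runs the difference was 0.30, 0.01 and -0.85.

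Adra1a encodes the α1A receptor. It ran from 5.36 over 5.46 to 5.60 in ethanol and from 5.30 over 5.37 to 5.60 in water animals, a difference of 0.06 (SE 0.047, limma adjusted p = 0.675). Adrb1 encodes the β1 receptor, the main β receptor of forebrain neurons. It ran from 5.58 over 5.95 to 6.09 in ethanol and from 5.44 over 5.88 to 6.12 in water animals, a difference of 0.07 (SE 0.078, limma adjusted p = 0.775). This was 0.0049 with the astrocyte score as a covariate, 0.0259 without water animal 14 and 0.11 without ethanol animal 7. Both genes were dim, and the ranges of the groups overlapped. For Adra1a, 9 ethanol animals lay above the water median and 5 water animals below the lowest ethanol animal. For Adrb1 these counts were 8 and 1.

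The genes also differed in how much they varied among animals of the same group. The within-group SD was 0.60 for Adra1d, larger than in 99.1% of all non-control probe sets. It was 0.40 for Adra2c and 0.31 for Adra1b, larger than in 96.2% and 92.2% of those above the filter, whose median was 0.14. Adra2a had 0.17, Adrb1 0.18, Adra2b 0.18 and Adra1a 0.098. Adra1d thus lay below the filter on its mean while varying more than most probe sets on the array.

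Covariation among the genes was measured as the correlation over 20 animals after removing group means. Of the 21 pairs of main probe sets 0 passed Benjamini-Hochberg adjustment in a two-sided permutation test within groups, by Pearson's r or by Spearman's rho. At an unadjusted p under 0.05 there was 1 pair by r and 2 by rho. Pearson's r ran from -0.33 to 0.51, with 7 pairs above 0 and 14 below. The highest was Adra2b with Adrb1, both below the filter (r = 0.51, permutation p = 0.0223, adjusted 0.456; rho = 0.57, permutation p = 0.0132, adjusted 0.276). It was 0.67 in ethanol and 0.38 in water animals, 0.65 with the run removed, and 0.33 without ethanol animals 3 and 7, the animals farthest from the median of Adra2b.

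No pair of paralogs passed. Adra2a and Adra2c gave r = -0.25 (permutation p = 0.293, adjusted 0.456; rho = -0.15), with -0.73 in ethanol animals, 0.10 in water animals and -0.42 without the 3 arrays that correlated least. Adra1b and Adra1d gave r = 0.29 (permutation p = 0.252, adjusted 0.456; rho = 0.10), with 0.69 in ethanol and -0.49 in water animals. Whether the ethanol and water values of these pairs differ was not tested. Without ethanol animal 1 and water animal 18, the farthest from the Adra2a median, Adra2a with Adra2c stood at -0.16. Ethanol animal 1 had the highest Adra2a value (10.058) and the lowest Adra2c value (8.307) of the ethanol animals. Genes on the same chromosome were Adra2a with Adrb1 on chromosome 1 (r = -0.30) and Adra1d with Adra2b on chromosome 3 (r = 0.29).

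**Figure D3:**
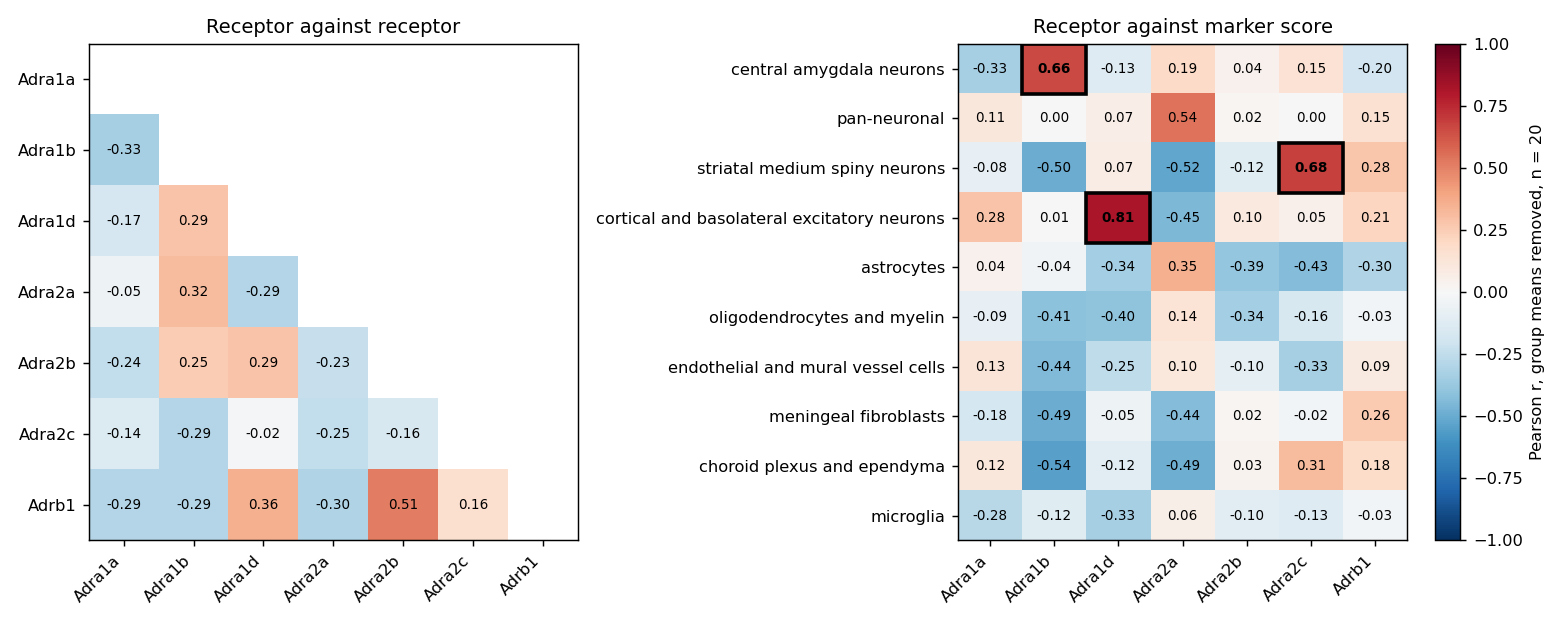
Pearson's r over 20 animals after removing group means, between receptor genes (left) and between each receptor gene (columns, right) and the mean of 10 lists of cell type markers (rows, right); red is positive and blue negative. Boxes mark the 3 of 70 marker pairs past adjusted p = 0.05, Adra1b with central amygdala neurons (0.66), Adra2c with striatal medium spiny neurons (0.68) and Adra1d with cortical and basolateral excitatory neurons (0.81).

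Adra1d, Adra2c and Adra1b each correlated with the score of a different list of neuron markers, and Adra1b did not pass by Spearman's rho. The central amygdala and striatal lists share Ppp1r1b. Over 7 genes and 10 marker lists 70 correlations were computed, and 3 passed adjustment by Pearson's r and 2 of them by Spearman's rho. At an unadjusted p under 0.05 there were 10 by r and 9 by rho. The points share their array and its normalization, and the part of cell makeup in these correlations was not tested.

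Adra1d correlated with markers of cortical and basolateral excitatory neurons (r = 0.81, permutation p = 2e-05, adjusted 0.0014; rho = 0.82, permutation p = 6e-05, adjusted 0.0042). The value was 0.83 in ethanol animals, 0.93 in water animals, 0.83 with the run removed, 0.83 without ethanol animals 3 and 4, the farthest from the Adra1d median, and 0.82 without the 3 arrays that correlated least. All 10 markers correlated with Adra1d above 0, from 0.50 for Rorb to 0.87 for Nrn1, which encodes neuritin. These markers make up the score that had already passed, so their signs are a description and no further support. The share of all genes above 0 was not computed. The vesicular glutamate transporter gene Slc17a7 was at 0.79 and the transcription factor gene Neurod2 at 0.81. The score itself hardly differed between the groups, at 9.33 ± 0.62 in ethanol and 9.33 ± 0.72 in water animals (10 animals per group, SD).

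Adra2c followed the striatal score (r = 0.68, permutation p = 0.00087, adjusted 0.0305; rho = 0.75, permutation p = 0.00049, adjusted 0.0172). It was 0.87 in ethanol animals, 0.60 in water animals, 0.68 with the run removed and 0.78 without the 3 arrays that correlated least. Without ethanol animal 1 and water animal 19, the farthest from the Adra2c median, r was 0.57 and no longer passed (adjusted permutation p = 0.331). The call was also lost when ethanol animal 1, 5 or 8 or water animal 16 or 20 was left out (r = 0.58 to 0.67). All 16 markers correlated with Adra2c above 0, from 0.22 for the transcription factor gene Bcl11b to 0.78 for the adenylyl cyclase gene Adcy5. These signs too are only a description, because the markers were read after their score had passed. The dopamine receptor gene Drd2 was at 0.69, Pde10a, a phosphodiesterase gene of medium spiny neurons, at 0.70, and Drd1 at 0.48.

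Adra1b followed the central amygdala score (r = 0.66, permutation p = 0.00212, adjusted 0.0495; rho = 0.65, permutation p = 0.00372, adjusted 0.0868). It was 0.60 in ethanol animals, 0.73 in water animals, 0.72 with the run removed, 0.64 without the 3 arrays that correlated least, and 0.66 without ethanol animal 3 and water animal 16. The call by r stood close to the threshold. It was lost without those 3 arrays and without ethanol animal 3 and water animal 16. It was also lost when any 1 of 14 animals was left out, with r between 0.58 and 0.73 over all 20 such fits. The markers differed among themselves. The peptide genes Sst (0.85), Tac3 (0.75) and Crh (0.74) and the kinase gene Prkcd (0.70) correlated with Adra1b, while Penk stood at 0.05, Meis2 at -0.19 and Ppp1r1b at -0.24. Adra1b had negative correlations with the choroid plexus and ependyma score (r = -0.54, permutation p = 0.0162, adjusted 0.255; rho = -0.50), the striatal score (r = -0.50, permutation p = 0.0310, adjusted 0.278; rho = -0.52) and the meningeal score (r = -0.49, permutation p = 0.0318, adjusted 0.278; rho = -0.58). None of these passed adjustment over all 20 animals. Without water animal 18 the meningeal score passed (r = -0.67, adjusted permutation p = 0.0485) and the central amygdala score did not.

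**Figure D4:**
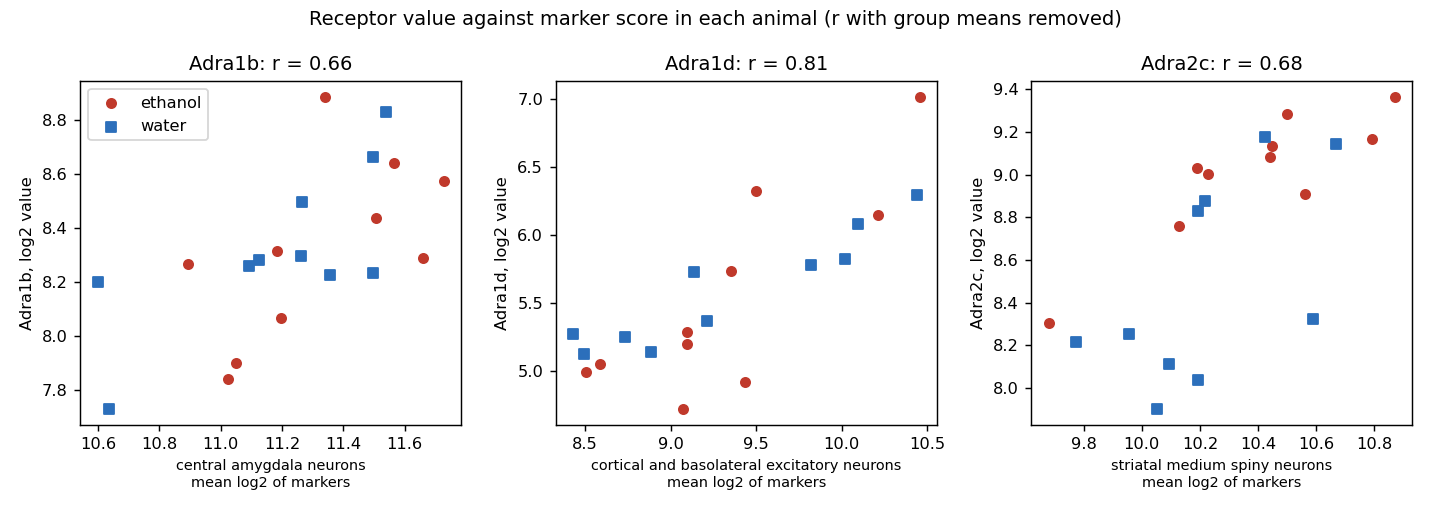
Log2 value of Adra1b, Adra1d and Adra2c (y axes) against the mean log2 value of the marker list each followed (x axes), with red circles for ethanol and blue squares for water animals. For Adra1d (r = 0.81) the points rise within each group (0.83 in ethanol and 0.93 in water animals), and for Adra2c (r = 0.68) 1 ethanol and 6 water animals form the lower part.

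Adra2a had no score past adjustment. Its highest r was 0.54 with pan-neuronal markers (permutation p = 0.0182, adjusted 0.255; rho = 0.38). It was 0.33 without the 3 arrays that correlated least and -0.0038 without ethanol animal 1 and water animal 18, so it rested on those animals. Leaving out the same animals gave 0.69 with the central amygdala score, against 0.19 over all 20 animals (permutation p = 0.439, adjusted 0.951; rho = 0.48, permutation p = 0.0377, adjusted 0.330). The value of 0.69 did not pass adjustment. For Adra1a, Adra2b and Adrb1 no score passed either.

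For the 3 receptor genes above the filter, the genes whose values ran most like theirs were taken over 10158 genes above the filter, by Pearson's r over 20 animals with group means removed. For Adra1b they were Vcf1 (0.96), Zdhhc23 (0.90) and Klhl32 (0.89), with 17 genes above 0.8. Vcf1 followed Adra1b at 0.96 in both ethanol and water animals. Vcf1 lies on chromosome 10 as Adra1b does, Zdhhc23 on chromosome 11 and Klhl32 on chromosome 5. A link between position and correlation was not tested. For Adra2a they were Dock11 (0.86), the lysosomal ATPase gene Atp13a2 (0.86) and Fam13b (0.85), with 20 genes above 0.8. For Adra2c they were Lratd1 (0.80), Adcy5 (0.77) and Ppp1r2 (0.77), with 1 gene above 0.8. Lratd1 averaged 11.63 ± 0.11 in ethanol and 11.48 ± 0.11 in water animals (10 animals per group, SD). These were the highest of many correlations and are descriptions.

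Genes around the receptors were read from lists of noradrenaline handling, G proteins, effectors and desensitisation, and 0 of them passed the adjusted threshold in limma. Of 14 G protein genes above the filter 13 had a higher mean with ethanol, against 57.8% of all probe sets above the filter. Their median difference was 0.12, against 0.02 over all. Of these genes 4 had an unadjusted p under 0.05 in that direction (7.37% of all). Pan-neuronal markers were higher in 14 of 15 in the same animals, with a median of 0.12. Gna11, a Gq-class α subunit to which α1 receptors couple, averaged 9.03 ± 0.097 in ethanol and 8.88 ± 0.11 in water animals (difference 0.15, SE 0.048, limma adjusted p = 0.286). Gnal, the olfactory-type stimulatory subunit that replaces Gs in striatal neurons, averaged 10.84 ± 0.20 in ethanol and 10.62 ± 0.22 in water animals (difference 0.22, SE 0.089, limma adjusted p = 0.336).

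Of 18 effector genes above the filter 11 had a higher and 7 a lower mean with ethanol (median 0.01), where 57.8% of all had a higher mean. An unadjusted p under 0.05 was found for 3 of the higher (7.37% of all in that direction). The smallest p-values belonged to Prkar2b, a regulatory subunit of protein kinase A, and, below the filter, to the potassium channel gene Kcnj3, whose channel α2 receptors open. Prkar2b differed by 0.14 (SE 0.052, limma p = 0.0129 before and 0.313 after adjustment). Kcnj3 differed by 0.20 (SE 0.070, limma p = 0.0110 before and 0.388 after adjustment). Of 10 desensitisation genes above the filter 8 had a higher mean (median 0.07, against 57.8% and 0.02 over all). Of these 10, 0 had an unadjusted p under 0.05. The receptor kinase genes Grk3 (0.18, SE 0.060) and Grk4 (-0.20, SE 0.070) had the smallest p-values of the list and lay below the filter. Their limma p was 0.00751 and 0.00785 before adjustment and 0.366 and 0.367 after it.

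Of 5 noradrenaline handling genes above the filter 4 had a higher mean with ethanol (median 0.04, against 57.8% and 0.02 over all). Of these 5, 0 had an unadjusted p under 0.05. Th, the tyrosine hydroxylase gene, lay below the filter at 6.90 ± 0.28 in ethanol and 6.71 ± 0.16 in water animals (difference 0.19, SE 0.096, limma adjusted p = 0.492). Ddc, which encodes the next enzyme of catecholamine synthesis, differed by 0.16 (SE 0.082, limma adjusted p = 0.405). Dbh and Slc6a2, the genes of noradrenaline synthesis and reuptake, lay below the filter and differed by -0.01 and 0.06. Both are known to be transcribed in the brainstem cell bodies, whose axons reach the amygdala. Adrb3, another β receptor gene with a probe set on the array, lay below the filter and differed by -0.09 (SE 0.064, limma adjusted p = 0.638).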

How the data were processed

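The authors summarised probes with RMA, per the submitters' processing notes, which name no version. Their deposited table holds 1 log2 value per probe set and animal, and the log base was read from its range of 3.82 to 16.16. Per the labels' protocols, biotinylated cRNA was made from total RNA with the 3' IVT Express kit. Detection calls and scanner files were not used here.

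Ethanol minus water was fitted on the whole table with limma 3.58.1 (lmFit, eBayes) in R 4.3.3 without covariates. Tests were two-sided at 0.05 after Benjamini-Hochberg adjustment. The fit was tested on simulated data. Permutation tests drew 100000 resamples, within groups for correlations (Python 3.11.15, numpy 2.4.6, scipy 1.17.1). A score is the mean of the list's genes above the filter, with 1 probe set per gene. Lists and markers were written from textbook knowledge. Named genes were all member probe sets, the 2 genes of each pathway list with the smallest p, and the 3 genes most like each receptor above the filter. Dbh, Slc6a2 and genes named from the marker lists were chosen after their values were seen. The members and lists were chosen with earlier results of these data known.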

Additional observations from a re-analysis of the deposited data

Results flagged for a closer look

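Of 20 group and probe set combinations checked for a single animal far from the rest, 2 were marked, and chance marks about 1 in 20. In the Adra2a probe set 1393048_at, ethanol animal 1 was at 10.058, and the next ethanol animal at 9.716, a gap of 0.57 of the group's range. In the Adra2b probe set 1370567_at, ethanol animal 3 was at 6.957, and the next at 6.552, a gap of 0.50 of the range. Without these animals the differences were 0.06 for Adra2a and -0.04 for Adra2b.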

How the results depend on the processing

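No receptor probe set passed the adjusted threshold in any of the 12 other settings or when any 1 animal was left out. The Adra2c difference was 0.31 to 0.60 in these, and its interval included 0 with the astrocyte score as a covariate. The count over all probe sets, 4, was 2 with the filter at the 60th percentile, 23 with array weights, 1 with the striatal score as a covariate and 0 with the myelin or the astrocyte score (limma, 2397 and 1866 at an unadjusted p under 0.05), and 1 to 8 with an animal left out. The cause was not tested. Differences near 0 changed sign. Adra1b was 0.0065 with median centring, 0.0428 with array weights, 0.0836 with the striatal score, 0.0341 without the 3 arrays that correlated least, 0.22 in run 2 (-0.41 in run 3) and -0.0658 to 0.0562 with an animal left out. Adra1d was 0.18 with array weights, 0.0327 without the 3 arrays, 0.30 in run 1, 0.009 in run 2 and -0.21 to 0.0442 with an animal left out. Adra2b was -0.0492 with array weights, -0.0399 with the myelin and -0.0735 with the astrocyte score, -0.0669 with probe set 1396853_at, -0.0694 in run 2, -0.0723 in run 3 and -0.0435 to 0.0469 with an animal left out. In run 3, Adra1a was -0.0373, Adra2a -0.0164 and Adrb1 -0.0042, and in run 2 Adrb1 was -0.048. The count of receptor pairs, 0, was 1 among ethanol animals alone, 1 with the cortical and basolateral score removed, and 0 to 1 with an animal left out (1 without water animal 16, Adra2b with Adrb1 at r = 0.67, adjusted permutation p = 0.0273). The count of receptor and marker score pairs, 3, was 0 among ethanol animals alone, 1 among water animals alone, 1 without the 2 farthest animals, and 1 to 3 with an animal left out (1 without ethanol animal 5, ethanol animal 8, water animal 16 or water animal 20). The Adra1b and central amygdala pair was also lost without the 3 arrays that correlated least. Without water animal 18 it was lost, while Adra1b with the meningeal score passed (r = -0.67, adjusted permutation p = 0.0485). The alternatives for marker scores were chosen after seeing the data. No paired analysis was possible because no animal number occurs in both groups. With 10 animals a group, the number of arrays limits precision, and 4 of the 7 genes lay below the signal filter.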

Other observations

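Adra1a and Adra1d, both below the filter, correlated at -0.17 over the 20 animals (rho = -0.06), at -0.85 among ethanol animals (adjusted permutation p = 0.0420 over 21 pairs) and at 0.56 among water animals. The difference between the groups was not tested. With the cortical and basolateral score removed along with the group means, r over all animals was -0.72 (adjusted permutation p = 0.00441). With each of the other 9 marker scores removed it was -0.14 to -0.29, and none of those values passed.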
